A study of Homo sapiens with 8 samples.

Results

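Chromatin accessibility was examined at 9 genes of the integrated stress response, ATF4, CEBPB, DDIT3, TRIB3, PPP1R15A, SESN2, DDIT4, ASNS and CHAC1. Each gene was taken with 20 kb on either side of its RefSeq body on GRCh38, and every accessible region (peak) overlapping that window was kept. The 9 windows held 53 of the 129536 peaks in the deposited table, between 4 and 8 peaks per gene. Each gene had exactly 1 peak over its start site. This means a peak that overlapped the interval from 250 bases before to 50 bases after a listed start of that gene. Starts were those in a RefSeq promoter table, which is not complete and does not list the first base of the longest annotated ASNS span.

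The integrated stress response begins when kinases that sense amino acid shortage, misfolded protein, double-stranded RNA or haem deficiency phosphorylate the translation factor eIF2. General protein synthesis then slows while the mRNA of the transcription factor ATF4 is translated more efficiently, and ATF4, paired with C/EBP proteins, drives genes for amino acid supply, redox balance, feedback and cell death. Hyperosmotic shock is among the stresses known to raise eIF2 phosphorylation, and sorbitol, a sugar alcohol that stays outside the cell and draws water from it, is a standard way to impose it.

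The data were Omni-ATAC-seq libraries of 50000 cells each, in which a transposase cuts and tags open DNA of isolated nuclei. The cells were HEK293, a human embryonic kidney line, and carried eGFP-YAP, a fluorescent fusion of the transcriptional coactivator YAP, in both groups. There were 4 vehicle libraries, whose library names give 0 h, and 4 libraries from cells given 0.2 M sorbitol for 1 h, so the labels do not show a vehicle matched in time, and the series description adds 1 h of serum starvation. What drives the fusion, whether the line is a single clone and whether the libraries of a group came from separate cultures are not given in the sources used here, so p-values measure only the spread between these libraries, which may be technical.

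Libraries held between 11522266 and 19831471 counts in peaks. Vehicle 4 and sorbitol 4 stood apart from their groups. On sequences not placed in a chromosome (contigs), 477 peaks averaged 50 counts or more, and there the median log2 deviation from the mean of all libraries was 0.34 in vehicle 4 against -0.29 to -0.07 in the other vehicle libraries. It was -0.30 in sorbitol 4 against 0.08 to 0.28 in the other sorbitol libraries. Of the line markers with an entry in the promoter table, 3 of 4 (VIM, PAX2 and SIX2, but not KRT8) had a start-site peak. None of the 4 with an entry for other cell types (ALB, INS, MYH6 and PTPRC) had such a peak.

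Promoter sequences of 5 of the genes are given because they carry elements known from stress signalling or lie in the peaks whose values are compared below. They come from the RefSeq promoter table for GRCh38.p14 and run 5′ to 3′ on the gene's own strand, ending at the base before the RefSeq start. Capitals mark the C/EBP-ATF composite element TGATGNAA in CHAC1 and ASNS and the CCAAT box in CHAC1 and DDIT3. They mark the cAMP response element TGACGTCA and the TATA box core TATAAA in PPP1R15A, and the E-box CACGTG and TATAAA in ATF4. The stretches are chr15:40953221-40953470 on the plus strand for CHAC1 and chr7:97872409-97872658 on the minus strand for ASNS. PPP1R15A is shown at chr19:48872171-48872420 on the plus strand and ATF4 at chr22:39520309-39520558 on the plus strand. DDIT3 is shown at chr12:57520515-57520714 on the minus strand and was shortened to 200 bases, because the neighbouring gene MBD6 begins 198 bp from DDIT3 in the opposite direction. The ASNS bases lie inside the longest annotated spans of ASNS and of the read-through transcript CZ1P-ASNS.
CHAC1: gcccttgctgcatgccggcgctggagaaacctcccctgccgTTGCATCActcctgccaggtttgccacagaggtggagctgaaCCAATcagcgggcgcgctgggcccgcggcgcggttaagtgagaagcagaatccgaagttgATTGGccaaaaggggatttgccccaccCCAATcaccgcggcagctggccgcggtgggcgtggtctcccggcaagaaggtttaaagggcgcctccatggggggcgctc
ASNS: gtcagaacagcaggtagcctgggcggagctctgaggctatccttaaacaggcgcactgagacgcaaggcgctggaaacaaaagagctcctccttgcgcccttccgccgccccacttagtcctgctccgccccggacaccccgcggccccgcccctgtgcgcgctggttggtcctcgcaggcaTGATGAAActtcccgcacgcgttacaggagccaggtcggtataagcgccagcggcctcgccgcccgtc
PPP1R15A: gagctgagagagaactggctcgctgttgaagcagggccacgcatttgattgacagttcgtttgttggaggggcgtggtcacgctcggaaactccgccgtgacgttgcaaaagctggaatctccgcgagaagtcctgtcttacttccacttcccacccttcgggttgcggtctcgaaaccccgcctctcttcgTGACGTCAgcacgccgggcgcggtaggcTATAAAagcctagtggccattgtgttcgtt
DDIT3: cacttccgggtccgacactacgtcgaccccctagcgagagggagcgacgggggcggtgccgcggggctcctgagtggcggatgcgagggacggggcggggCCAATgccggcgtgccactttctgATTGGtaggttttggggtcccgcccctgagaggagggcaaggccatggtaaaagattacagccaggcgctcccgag
ATF4: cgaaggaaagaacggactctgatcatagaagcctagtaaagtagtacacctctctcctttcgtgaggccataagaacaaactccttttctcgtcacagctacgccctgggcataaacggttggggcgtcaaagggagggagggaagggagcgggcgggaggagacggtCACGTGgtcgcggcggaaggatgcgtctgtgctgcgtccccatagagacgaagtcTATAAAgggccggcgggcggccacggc

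The composite element, the sequence that ATF4 binds together with C/EBP proteins, was present within the 300-base promoter windows of 2 of the 9 genes, searching both strands. In ASNS it read TGATGAAA, 68 bases before the start, and in CHAC1 it read TTGCATCA, the reverse strand of the same pattern, 209 bases before the start. The element was found in 2.69% of 22198 windows of protein-coding genes. The 9 genes have 15 windows, 1 to 3 per gene. Shares here are per window and the 9 are counted per gene, so the measures are not alike. TGACGTCA, which CREB and ATF family proteins bind, was found in 2.26% of windows and, among the 9 genes, only in PPP1R15A. CCAAT boxes were found in 34.7% of windows and in 5 of the 9 genes (SESN2, DDIT4, DDIT3, CHAC1 and CEBPB), while TATAAA was found in 9.47% of windows and in ATF4, PPP1R15A and CEBPB. CACGTG was found in 8.34% of windows and in ATF4 alone of the 9. The AP-1 pattern TGANTCA was found in 6.15% of windows and in DDIT3 only, outside the shortened stretch printed above. The TonE core TGGAAA, the pattern recognised by the osmotic stress factor NFAT5, was found in 17.7% of windows and in ASNS and DDIT4. The TEAD core GGAATG, bound by the partners of YAP, was found in 12.2% of windows and in none of the 9 genes. No match of a pattern shared a base with a match of another. These matches are descriptions of the letters in the windows and do not show binding.

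Across the 53 peaks, accessibility was lower in sorbitol at 23 and higher at 1, and 29 were not called (edgeR quasi-likelihood test, adjusted p under 0.05 over all 129487 peaks tested). Over all tested peaks, 13.1% were called lower and 16.0% higher. All 53 peaks passed the filter on low counts. The median log2 fold change, given throughout as sorbitol over vehicle, was -0.26 over the 53 peaks and 0.01 over all peaks, and 42 of the 53 values lay below 0. The sorbitol libraries all lay below the vehicle libraries at 19 peaks and all above them at 1, against 12.6% and 13.7% of all tested peaks. The single peak that rose lay upstream of CEBPB. Without vehicle 4 and sorbitol 4, 2 peaks were called higher and 21 lower. The counts moved with the scaling of the libraries. With factors computed from peaks within 1 kb of gene ends, which shifted the median of all peaks from 0.01 to 0.19, 9 peaks were called lower and 4 higher, against 6.7% and 26.3% of all peaks under that scaling, and the median of the 53 was -0.09. With factors from contig peaks 5 were called lower and 0 higher, against 4.04% and 7.04% of all peaks, although the median of the 53, at -0.33, was no smaller in size.

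At the 9 start sites, accessibility was lower in sorbitol at ATF4, CEBPB, DDIT3, PPP1R15A, SESN2 and DDIT4 and was not called at TRIB3, ASNS and CHAC1. No start-site peak was called higher, none had a value above 0 at an unadjusted p under 0.05, and the DESeq2 Wald test called 0 higher. Lower calls were common at gene starts: of 11118 start-site peaks of protein-coding genes, 43.2% were called lower and 6.59% higher, and the median log2 fold change was -0.20 against -0.31 over the 9 genes. These sets were not matched for peak strength. The groups did not overlap, with sorbitol below, at 7 of the 9, and this held for 40.7% of all start-site peaks, with 5.98% separated the other way. No start-site peak of the 9 changed by 2-fold or more, which 0.531% did downward and 0.315% upward among all start-site peaks. All 9 values were below 0 with the TMM scaling, 6 of them with an abundance-dependent loess offset or with gene-boundary factors, and 8 with library totals. The 6 calls became 0 with the loess offset, 0 with contig factors and 1 (ATF4) with gene-boundary factors, and they numbered 6 without vehicle 4 and sorbitol 4. Under these scalings 27.8%, 8.7% and 24.9% of all start-site peaks were called lower. The median of the 9 was -0.12 with loess, -0.35 with contig factors, where all 9 were below 0, and -0.14 with gene-boundary factors, and that of all start-site peaks was -0.06, -0.25 and -0.02.

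**Figure D1:**
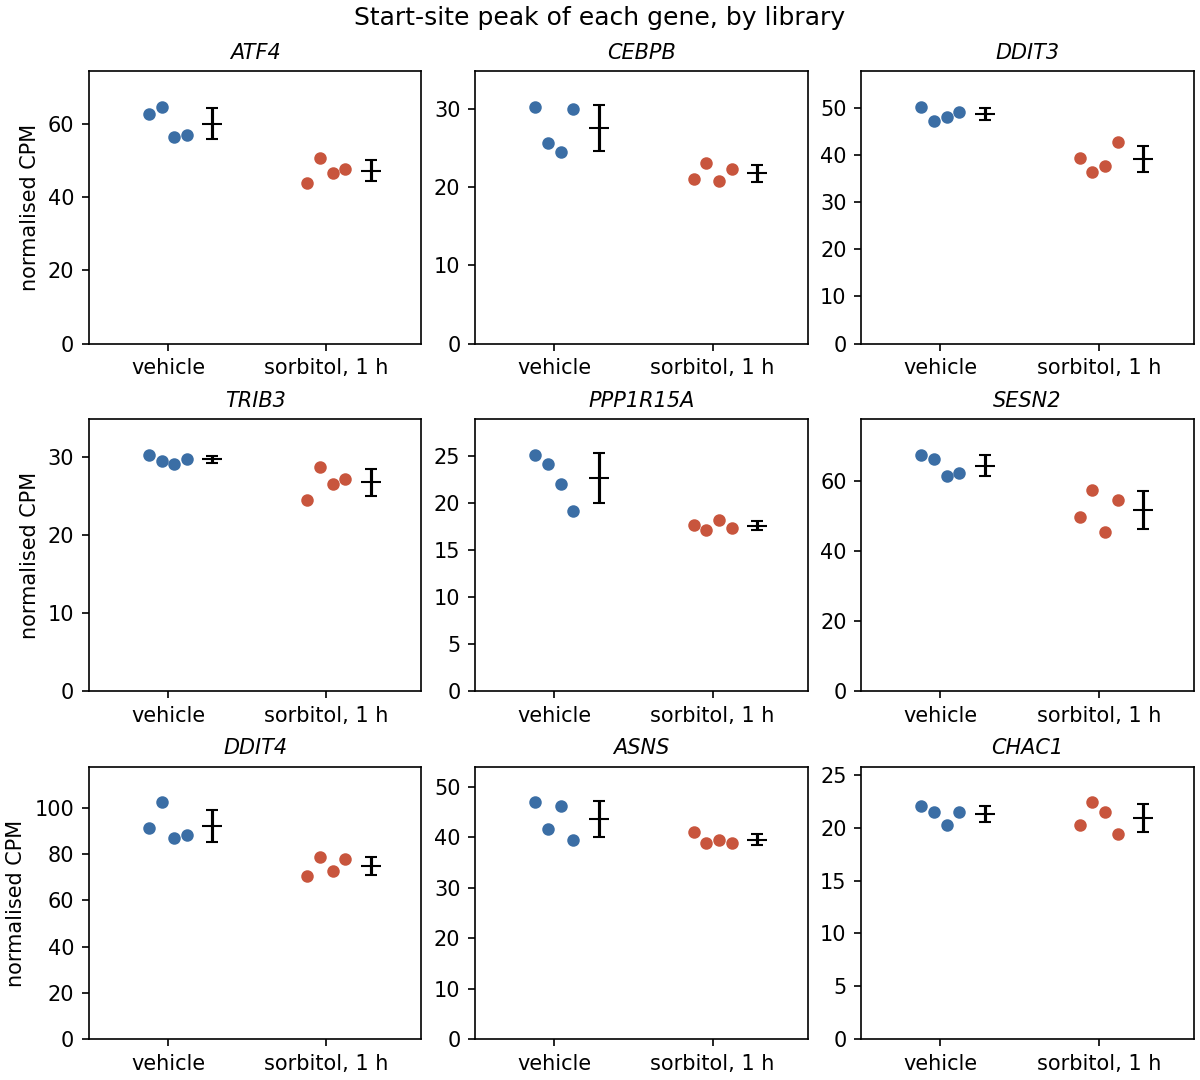
Normalised counts (CPM) of the start-site peak of each of the 9 genes (vertical axis) in the 4 vehicle and 4 sorbitol libraries. Points are libraries, and bars are group means with the SD (n = 4). The 7 genes with sorbitol below every vehicle library are all but ASNS and CHAC1.

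Levels are given below as CPM, counts scaled to a library total of 1000000 after TMM normalisation, and changes compare a peak with itself across libraries. Where a peak is called stronger or weaker than others, the ranking is by CPM, which is not adjusted for peak width. ATF4 encodes the central transcription factor of the response. Its start-site peak (chr22:39519407-39521178, covering the promoter printed above) measured 62.6, 64.7, 56.3 and 56.9 CPM in vehicle 1 to 4 and 44.0, 50.8, 46.5 and 47.6 CPM in sorbitol 1 to 4. Every sorbitol library was below every vehicle library, and the mean fell from 60.1 ± 4.16 to 47.2 ± 2.81 CPM (SD, n = 4 per group), a log2 fold change of -0.35 (SE 0.08, edgeR adjusted p = 0.000771). The gene lies on the plus strand at chr22:39520559-39522686.

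A stronger change in the ATF4 window lay downstream. A peak centred 12200 bp from the start overlapped RPS19BP1 and no start in the promoter table (chr22:39532338-39533186). It measured 40.9, 47.9, 40.2 and 36.3 CPM in vehicle and 29.6, 30.2, 23.6 and 25.4 CPM in sorbitol. The groups were separate, and the log2 fold change was -0.61 (SE 0.09, edgeR adjusted p = 1.12e-06). This call was kept with contig factors, the scaling that left the fewest calls. RPS19BP1 does not reach the next peak (chr22:39534705-39535193), so an end of that gene lies within or past the peak at -0.61. Whether that end is the start of RPS19BP1 was not examined. The third called peak of the window lay over the start of MIEF1, at -0.27 (adjusted p = 0.0198), a call lost without vehicle 1, vehicle 2 or sorbitol 3. The 5 others ranged from -0.53 to 0.14 and were not called.

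CEBPB, a C/EBP protein that pairs with ATF4, showed changes in both directions within its window. The start-site peak (chr20:50190165-50191525) measured 30.3, 25.7, 24.5 and 30.0 CPM in vehicle and 21.0, 23.1, 20.8 and 22.3 CPM in sorbitol. All sorbitol values lay below the lowest vehicle value, and the log2 fold change was -0.34 (SE 0.09, edgeR adjusted p = 0.00424). The adjoining peak in the gene body, which also covers the start of the antisense transcript CEBPB-AS1, fell from a mean of 15.5 to 10.4 CPM (-0.57, adjusted p = 0.000271).

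The peak that rose was centred 18150 bp upstream of CEBPB, at the start of the long noncoding RNA LINC01273 (chr20:50172068-50172799). It measured 8.09, 9.58, 8.41 and 7.25 CPM in vehicle and 13.8, 13, 11.4 and 13.5 CPM in sorbitol. The lowest sorbitol library exceeded the highest vehicle library, and the mean rose from 8.33 ± 0.963 to 12.9 ± 1.08 CPM (SD, n = 4 per group), a log2 fold change of 0.63 (SE 0.12, edgeR adjusted p = 7.47e-05). The value was 0.54 (adjusted p = 0.00109) without vehicle 4 and sorbitol 4, and the call was lost with contig factors (0.57, adjusted p = 0.104). The 2 peaks between it and the CEBPB start were not called, at -0.04 and -0.26.

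DDIT3 encodes CHOP, a transcription factor of the late response that promotes cell death. Its start-site peak (chr12:57519554-57521142) also covers the first bases of MBD6 and the start of LOC128125814, an overlapping protein-coding gene, so its value cannot be assigned to DDIT3 alone. The peak measured 50.2, 47.1, 48.1 and 49.1 CPM in vehicle and 39.4, 36.3, 37.7 and 42.7 CPM in sorbitol, with no overlap between groups. The log2 fold change was -0.32 (SE 0.08, edgeR adjusted p = 0.00238). The pair of peaks at other MBD6 starts, 1666 and 2435 bp upstream of DDIT3, were not called, at 0.02 and 0.21, and neither was the remaining weak peak downstream (-0.20).

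TRIB3 and PPP1R15A act in feedback. TRIB3, a pseudokinase induced by ATF4 and CHOP that dampens their activity, had a start-site peak (chr20:380555-382465) of 30.3, 29.5, 29.1 and 29.8 CPM in vehicle and 24.5, 28.7, 26.6 and 27.2 CPM in sorbitol. The groups did not overlap, but the difference was small and was not called (-0.15, SE 0.09, edgeR adjusted p = 0.207). The value was above 0 under the loess offset (0.01) and under gene-boundary factors (0.03). The called peak of the window was the start of RBCK1, 26779 bp from the TRIB3 start, which fell from 33.4, 38.0, 33.7 and 36.7 CPM to 28.2, 27.8, 22.3 and 30.9 CPM (-0.37, adjusted p = 0.00135).

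PPP1R15A encodes GADD34, the subunit that directs protein phosphatase 1 to eIF2 and so ends the response. Its start-site peak (chr19:48872013-48873363) measured 25.1, 24.1, 22.0 and 19.1 CPM in vehicle and 17.6, 17.1, 18.2 and 17.3 CPM in sorbitol. Vehicle 4 was the lowest of its group but still above all sorbitol libraries, and the log2 fold change was -0.36 (SE 0.10, edgeR adjusted p = 0.00372). The window had 4 of its 6 peaks called lower. A weak peak 13648 bp upstream, inside PLEKHA4, fell from 2.52, 2.95, 2.32 and 2.94 CPM to 1.67, 1.40, 1.17 and 1.65 CPM without overlap (chr19:48858593-48858953, -0.85, SE 0.25, adjusted p = 0.00704). A peak in the gene body fell by 0.56 on the log2 scale (adjusted p = 0.0158) and another 9466 bp from the start by 0.82 (adjusted p = 0.0143). The gene-body call was lost without vehicle 1, sorbitol 1 or sorbitol 3, and the last without vehicle 2 or sorbitol 2.

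SESN2 and DDIT4 restrain the growth kinase complex mTORC1, and their start sites were among the strongest of the 9. The SESN2 start-site peak (chr1:28259130-28260705) was stronger than 89.3% of all start-site peaks and measured 67.5, 66.3, 61.3 and 62.3 CPM in vehicle and 49.7, 57.3, 45.3 and 54.5 CPM in sorbitol. The groups were separate, with a log2 fold change of -0.31 (SE 0.08, edgeR adjusted p = 0.00238). Nearly as strong was a peak 12222 bp upstream at no RefSeq start (chr1:28246964-28247627), at 64.0, 67.8, 57.3 and 54.8 CPM in vehicle and 44.2, 44.7, 41.8 and 45.4 CPM in sorbitol. It fell by 0.47 on the log2 scale (SE 0.08, adjusted p = 1.37e-05), with every sorbitol library below every vehicle library.

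A further pair of SESN2 peaks were called lower, 10906 bp upstream (-0.49, adjusted p = 0.00175) and 2034 bp into the gene (-0.58, adjusted p = 0.00392). A weak peak 14008 bp into the gene had the highest value of all 53, at 0.65, and was not called (adjusted p = 0.0635). It was called higher with library totals (0.73, adjusted p = 0.0388), with gene-boundary factors (0.83, adjusted p = 0.0203), when vehicle 4 was left out (0.91, adjusted p = 0.0135) and when vehicle 4 and sorbitol 4 were both left out (1.00, adjusted p = 0.0088).

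The DDIT4 start-site peak (chr10:72272683-72274366), which also covers the start of DDIT4-AS1, was the strongest of the 9 and stronger than 97.4% of all start-site peaks. It measured 91.4, 102.4, 87.2 and 88.3 CPM in vehicle and 70.7, 78.8, 72.8 and 77.9 CPM in sorbitol. Groups did not overlap and the log2 fold change was -0.30 (SE 0.08, edgeR adjusted p = 0.00232). A larger relative change was measured 18692 bp upstream (chr10:72254990-72255475), where 6.60, 7.59, 6.65 and 7.80 CPM in vehicle compared with 4.17, 3.96, 4.52 and 3.71 CPM in sorbitol. This peak fell by 0.81 on the log2 scale (SE 0.16, adjusted p = 7.41e-05), and the call was kept with contig factors. The other 3 peaks of the window, including a strong one 13004 bp upstream, lay between -0.15 and 0.06 and were not called.

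ASNS and CHAC1 are the metabolic enzymes of the set. ASNS makes asparagine, and its start-site peak (chr7:97871711-97872872), which holds the composite element printed above, measured 46.9, 41.6, 46.2 and 39.5 CPM in vehicle and 41.1, 38.8, 39.5 and 38.8 CPM in sorbitol. The groups overlapped and the difference was not called (-0.14, SE 0.08, edgeR adjusted p = 0.203), and it was 0.04 under both the loess offset and gene-boundary factors. The only peak of the 53 called with a change of at least 2-fold was a weak one 65228 bp upstream of this start, in CZ1P-ASNS (chr7:97937486-97937786). It measured 1.5, 2.23, 1.75 and 1.85 CPM in vehicle and 0.75, 0.39, 1.84 and 0.69 CPM in sorbitol, so that sorbitol 3 lay within the vehicle range. The log2 fold change was -1.02 (SE 0.33, adjusted p = 0.0165), on a mean of 20.8 counts per library. The call was lost without vehicle 2 (adjusted p = 0.0623), without sorbitol 2 (0.0927) or without sorbitol 4 (0.0522), and with gene-boundary factors (0.0578). Without sorbitol 3 the value was -1.58 (adjusted p = 0.00117). Another weak peak, 40144 bp upstream of the ASNS start and inside its longest span, was called lower (-0.65, adjusted p = 0.0488) but lost the call in 12 of 18 other settings, among them the removal of any single library but sorbitol 2 or sorbitol 4, and the 4 others, from -0.30 to 0.50, were not called. Changes of at least 2-fold were called lower in 0.881% and higher in 5.27% of all peaks.

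CHAC1 degrades glutathione and is a strong target of ATF4. Its start-site peak (chr15:40952699-40953931), which also holds a composite element, had the smallest difference of the 9. It measured 22.1, 21.5, 20.3 and 21.5 CPM in vehicle and 20.3, 22.4, 21.5 and 19.4 CPM in sorbitol, with overlapping groups (-0.03, SE 0.09, edgeR adjusted p = 0.852). The value was above 0 with library totals (0.05), the loess offset (0.11), gene-boundary factors (0.15) and a filter of at least 50 counts (0.05), and was not called in any of these. The flanks differed from the start: 4 of the 5 other peaks fell. The strongest, 11580 bp upstream (chr15:40941334-40942448), measured 16.3, 14.9, 15 and 13.5 CPM in vehicle and 9.25, 8.63, 11.6 and 10.7 CPM in sorbitol without overlap (-0.57, SE 0.12, adjusted p = 0.000166). Peaks 6296, 14960 and 18831 bp from the start fell by 0.65, 1.00 and 0.72 on the log2 scale (adjusted p = 0.0208, 0.0273 and 0.0454), and the value of 1.00 was just under the 2-fold limit before rounding. Of 18 other settings, 4, 9 and 11 lost these calls in turn. All 3 were lost with gene-boundary factors, with contig factors and without sorbitol 4. The call at 6296 bp was also lost without vehicle 1, that at 14960 bp without vehicle 3, vehicle 4, sorbitol 1 or sorbitol 2, and that at 18831 bp without vehicle 1, vehicle 2, sorbitol 1 or sorbitol 3.

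To compare the start with its surroundings independently of library scaling, the log2 ratio of start-site counts to the counts in all other peaks of the window was fitted with limma for 10822 genes. Among the 9 members, only CHAC1 was called higher and only DDIT3 lower, where 11.2% of all genes were called higher and 19.1% lower. Neither kind of call was more frequent among the members than among all genes. The CHAC1 ratio was -0.30, -0.07, -0.16 and -0.01 in vehicle and 0.41, 0.58, 0.30 and 0.27 in sorbitol. The groups did not overlap, and the ratio rose by 0.52 (SE 0.13, limma adjusted p = 0.00631). It was called with each library left out in turn (0.46 to 0.56), without vehicle 4 and sorbitol 4 (0.60) and with 50 kb on each side, where it was 0.27 (adjusted p = 0.0441).

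The DDIT3 ratio was 0.85, 0.82, 0.78 and 0.76 in vehicle and 0.48, 0.31, 0.37 and 0.57 in sorbitol, and fell by 0.37 (SE 0.09, limma adjusted p = 0.00762) without overlap. Its other peaks were mainly the pair at MBD6 starts: with peaks at starts of other genes left out, the difference was -0.12 (adjusted p = 0.66), and with 50 kb on each side it was -0.05 (adjusted p = 0.686). The remaining 7 ratios were not called and differed by -0.27 (CEBPB, adjusted p = 0.101) to 0.17 (TRIB3, adjusted p = 0.248). CEBPB was called lower without vehicle 2 (-0.36, adjusted p = 0.0402), ATF4 lower with 5 kb on each side (-0.30, adjusted p = 0.0318, against -0.03) and TRIB3 higher with 50 kb (0.23, adjusted p = 0.0399). The median difference was -0.03 over the 9 genes and -0.05 over all genes.

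**Figure D2:**
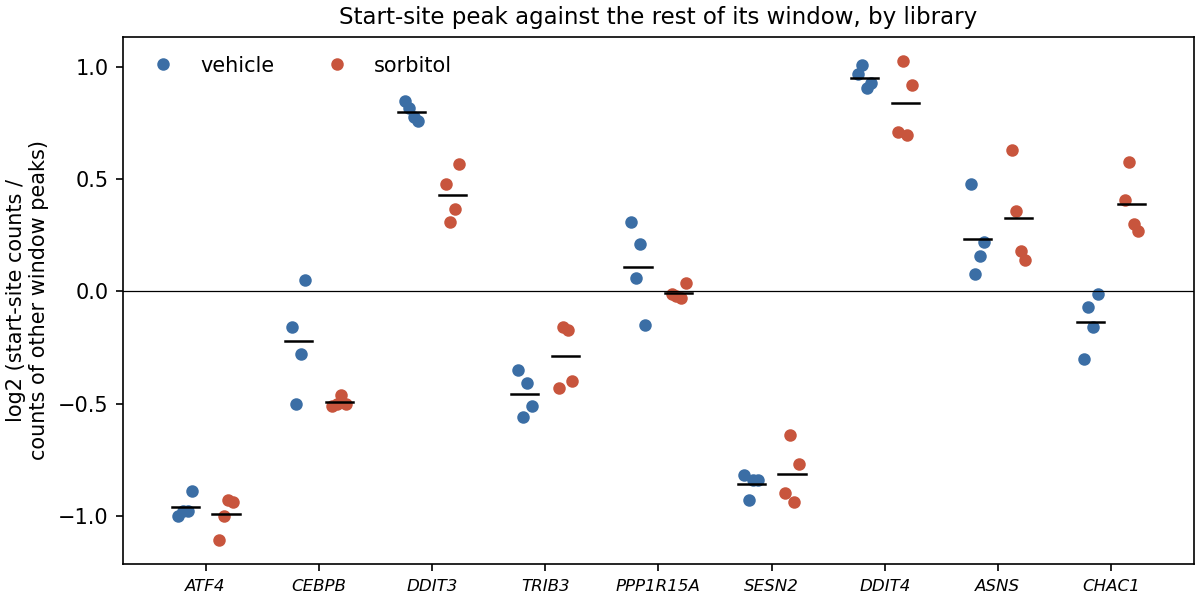
Log2 ratio of start-site counts to counts in all other peaks of the window (vertical axis) for the 9 genes in the 4 vehicle and 4 sorbitol libraries, with group means as bars. CHAC1 is higher and DDIT3 lower in every sorbitol library than in every vehicle library.

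Away from listed gene starts, 38 of the 53 peaks overlapped no start of any gene in the promoter table. Of these, 14 were called lower and 0 higher by edgeR (1 higher at an unadjusted p under 0.05 and 0 by the DESeq2 Wald test), with a median log2 fold change of -0.24, where 10.1% of 116692 such peaks across the genome were called lower and 17% higher and the median was 0.04. Of the 38 values, 30 were below 0. Groups were separate at 10, all lower, against 9.71% of such peaks genome-wide lower and 14.6% higher. The far ASNS peak was the only 1 of the 38 called with at least 2-fold, against 0.916% lower and 5.8% higher. Because the promoter table is not complete, the 38 are not free of gene starts, nor need the genome-wide set be. An uncalled ASNS peak among the 38 (chr7:97927959-97928756, -0.17, edgeR adjusted p = 0.225) covers the first base of the longest annotated ASNS span. The difference from the genome depended on the surroundings compared. Within 20 kb windows of all protein-coding genes, 12.1% of peaks at no start were called lower and 16.7% higher. For genes up to 25 kb long, which 8 of the 9 are, the values were 23.8% and 9.76%, with a median of -0.16 over 19294 peaks.

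The 38 peaks were also set beside peaks of like strength. In the weakest quartile of peaks at no start, 2 of 7 were called lower, against 2.99% of all, and the median was -0.03 beside 0.11. In the next quartile 4 of 7 were called lower, against 4.55%, with a median of -0.65 beside 0.12. These quartiles held the called ASNS peaks 65228 and 40144 bp upstream, lost in 4 and 12 of 18 other settings. They also held the CHAC1 calls at 14960 and 18831 bp, lost in 9 and 11, and the PPP1R15A calls at 13648 and 9466 bp, lost in 0 and 3. In the quartile above these 2 of 7 were called lower, against 10.0%, with a median of -0.30 beside 0.04. In the strongest 6 of 17 were called lower, against 22.8%, with a median of -0.19 beside -0.05. With TMM factors, no peak of the 38 was called higher in any quartile, where 14.1% to 22.9% of all were. Under gene-boundary factors, which called 26.3% of all tested peaks higher, SESN2 and PPP1R15A each had a peak of the 38 called higher. These lay 14008 bp into SESN2 (0.83, edgeR adjusted p = 0.0203) and 23908 bp from the PPP1R15A start (0.34, adjusted p = 0.0421). Among all 53, lower calls fell to 9 with gene-boundary factors and 5 with contig factors. Other values in this paragraph, apart from the counts of lost calls, use TMM factors. A further 6 peaks lay only at the start of another gene, of which 3 were called lower and 1 (LINC01273) higher, against 41% and 6.98% of 12795 peaks at RefSeq starts. Their median was -0.13, beside -0.19 over those peaks.

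**Figure D3:**
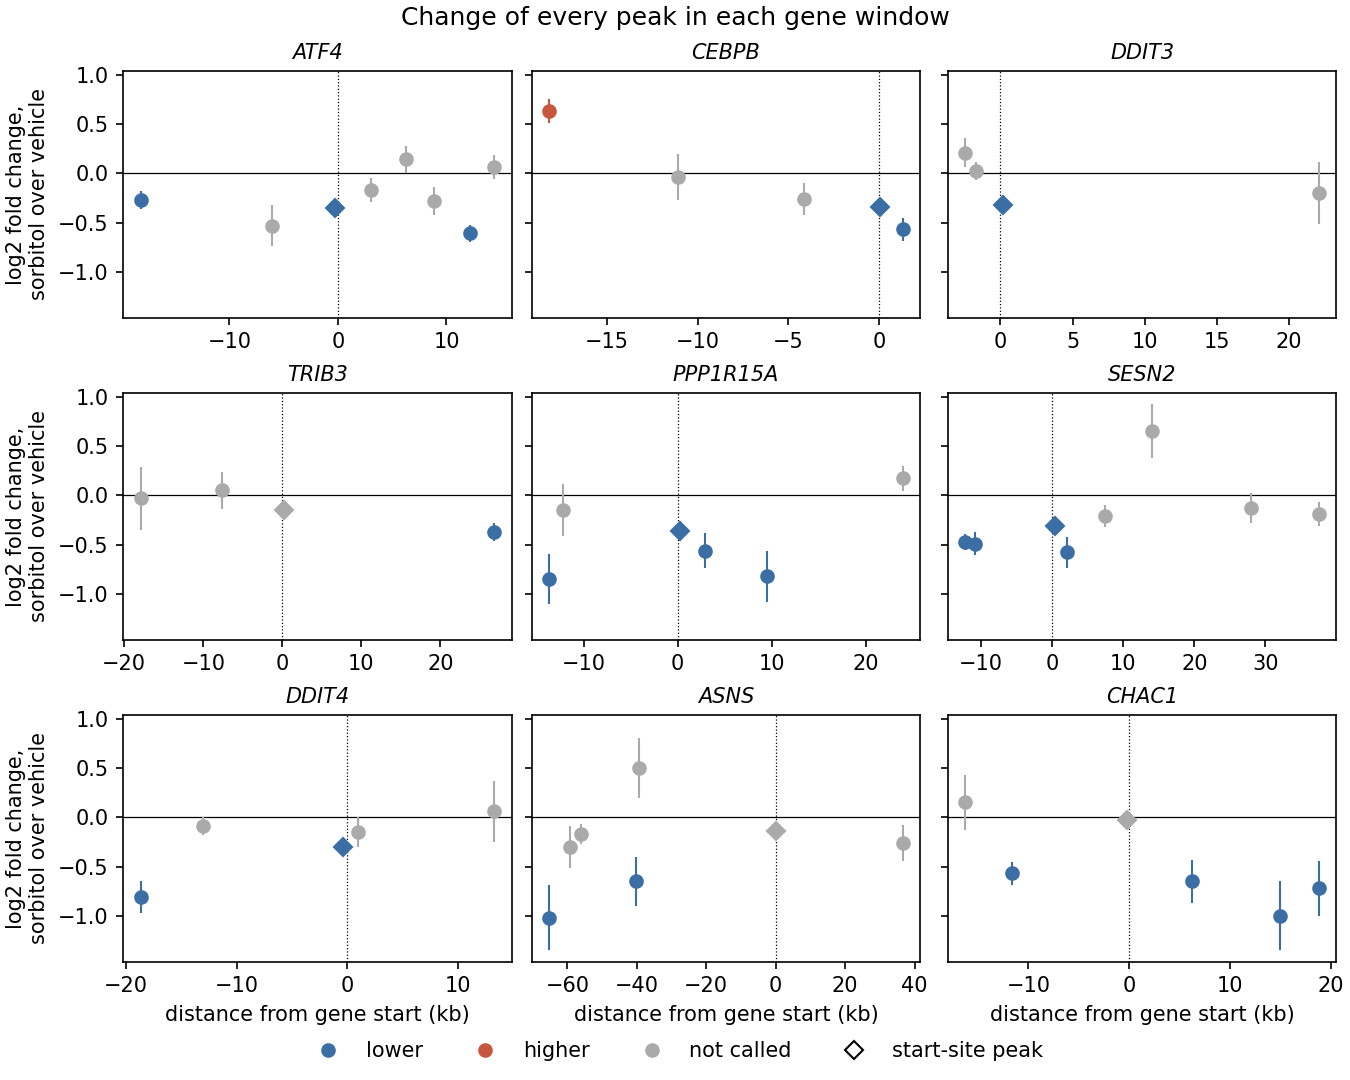
Log2 fold change, sorbitol over vehicle, of each of the 53 peaks (vertical axis) against distance of its centre from the start of its gene (horizontal axis), by gene. Vertical bars are the SE, colours give the edgeR call and diamonds are start-site peaks. The single called riser is upstream of CEBPB, and CHAC1 has called peaks on both sides of a start near 0.

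When the counts of a window were summed, the windows of ATF4 and SESN2 were called lower and 0 higher (0 at an unadjusted p under 0.05), where 29.6% of 18956 protein-coding windows were called lower and 30.2% higher. The SESN2 window measured 172.1, 174.7, 160.0 and 168.2 CPM in vehicle and 155.7, 155.7, 144.2 and 153.9 CPM in sorbitol, without overlap (-0.15, SE 0.04, edgeR adjusted p = 0.00169). The ATF4 window measured 172.8, 173.8, 156.9 and 157.4 CPM in vehicle and 151.9, 161.7, 147.7 and 145.1 CPM in sorbitol. These groups overlapped, since sorbitol 2 exceeded vehicle 3 and 4 (-0.12, SE 0.04, adjusted p = 0.0111), and the call was lost without vehicle 1, vehicle 2 or sorbitol 4. The other 7 windows lay between -0.10 (PPP1R15A) and 0.03 (DDIT3), and the median was -0.05 over the 9 and 0.01 over all windows. The calls depended on the width of the window. With 5 kb on each side neither was called (ATF4 -0.08, adjusted p = 0.21, and SESN2 -0.09, adjusted p = 0.126), and PPP1R15A and CEBPB were called lower instead (-0.21 each, adjusted p = 0.0244 and 0.00605). With library totals, which put the median of all windows at -0.12, 6 of the 9 were called lower (ATF4, TRIB3, CHAC1, SESN2, DDIT4 and PPP1R15A).

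**Figure D4:**
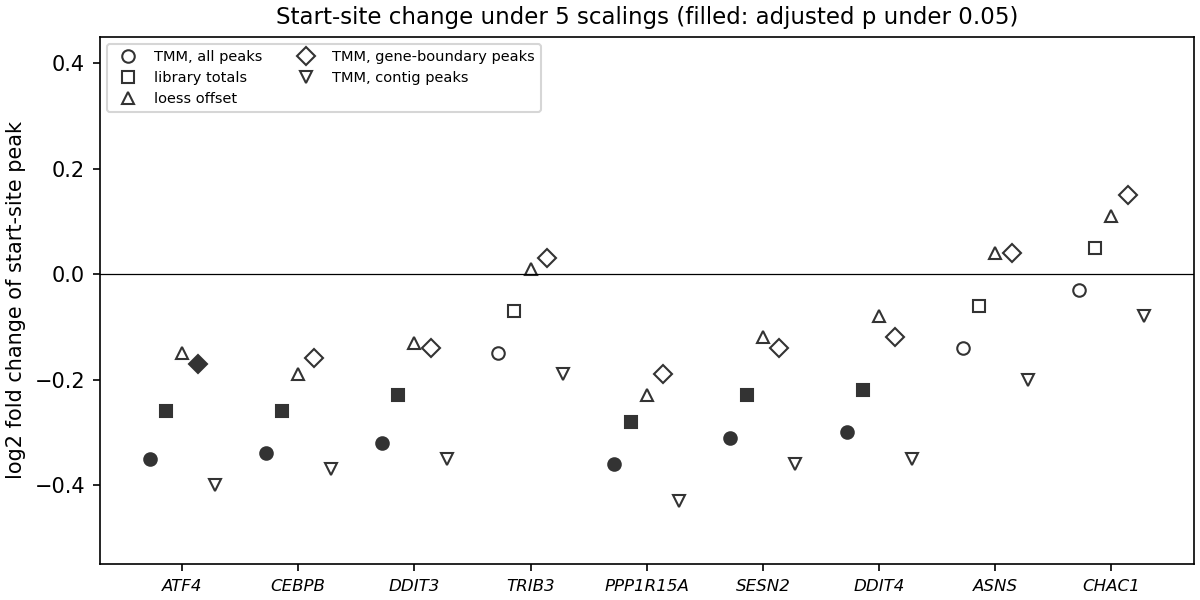
Log2 fold change of the 9 start-site peaks, sorbitol over vehicle (vertical axis), under 5 scalings of the libraries, with filled markers where the adjusted p was under 0.05. TMM factors from all peaks and library totals each fill 6 genes, gene-boundary factors fill ATF4, and TRIB3, ASNS and CHAC1 have values on both sides of 0.

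Other genes of the response were examined at their start sites through 6 lists drawn from general knowledge, with 65 tested peaks. Listed genes without a start-site peak, some of them absent from the promoter table, were not measured. They were EIF2AK1, EIF2S2, ATF3, NUPR1, ALDH1L2, GPT2, PSPH, PYCR1, SHMT2 and SLC7A11. LARS1, VARS1, YARS1, BBC3, FGF21, INHBE and VEGFA were the others. Of the 65 peaks, 42 were called lower and 0 higher by edgeR (0 at an unadjusted p under 0.05 and 0 by DESeq2). The shares given above for all start-site peaks were 43.2% and 6.59%, and the median of the 65 was -0.28. Median levels were 37.6 CPM over the 65, 41.5 CPM over the 9 genes and 27.3 CPM over all start-site peaks. Neither set was matched to all start-site peaks in strength. The lower calls numbered 22 with the loess offset, 20 with gene-boundary factors and 6 with contig factors, where 27.8%, 24.9% and 8.7% of all start-site peaks were called lower. The medians of the 65 were -0.10, -0.10 and -0.32, and the first pair of scalings each called 2 higher. Upstream of ATF4, the list of eIF2 kinases and eIF2 machinery had 10 of 14 peaks lower and a median of -0.34. Its strongest change was EIF2B4, a subunit of the guanine nucleotide exchange factor that phosphorylated eIF2 blocks. That peak (chr2:27369791-27371035) fell from 71.2, 63.9, 66.3 and 62.7 CPM to 39.8, 40.3, 39.9 and 43.4 CPM (-0.69, SE 0.08, adjusted p = 1.94e-09), with the groups far apart.

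Among partners of ATF4, 2 of 3 measured start sites were lower, by the same amount: ATF5, another transcription factor of the response (27.3 to 23 CPM, -0.25, edgeR adjusted p = 0.0303), and CEBPG, a C/EBP partner of ATF4 (30.0 to 25.2 CPM, -0.25, adjusted p = 0.0307). Downstream, genes of amino acid synthesis and transport had 10 of 14 peaks lower with a median of -0.35, and aminoacyl-tRNA synthetases and tRNA export had 8 of 12 lower with a median of -0.30. Of 3 start-site peaks of SLC1A5, the glutamine transporter ASCT2, 1 fell from 16.4 to 9.08 CPM (-0.85, adjusted p = 9.39e-08) and another from 7.18 to 4.39 CPM (-0.71, adjusted p = 0.000436), while the strongest was not called (20.1 and 17.5 CPM, -0.20, adjusted p = 0.144). The start of MARS1, which charges methionine tRNA, fell from 34.8 to 21.8 CPM (-0.68, adjusted p = 6.23e-08). Secreted, autophagy and death outputs had 2 of 8 peaks lower and a median of -0.08, and SQSTM1, the autophagy receptor p62, had the peak with the smallest p (33.2 to 25.2 CPM, -0.39, adjusted p = 0.000828). The other 2 SQSTM1 start-site peaks, including the strongest (54.9 and 53.8 CPM), were not called, at 0.03 and -0.03. The parallel ATF6 and IRE1 arms of the unfolded protein response had 10 of 14 lower with a median of -0.26. There, SYVN1, a ubiquitin ligase that clears misfolded proteins from the endoplasmic reticulum, fell from 62.3 to 43.6 CPM (-0.51, adjusted p = 2.67e-06). Differences between lists were not tested.

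**Figure D5:**
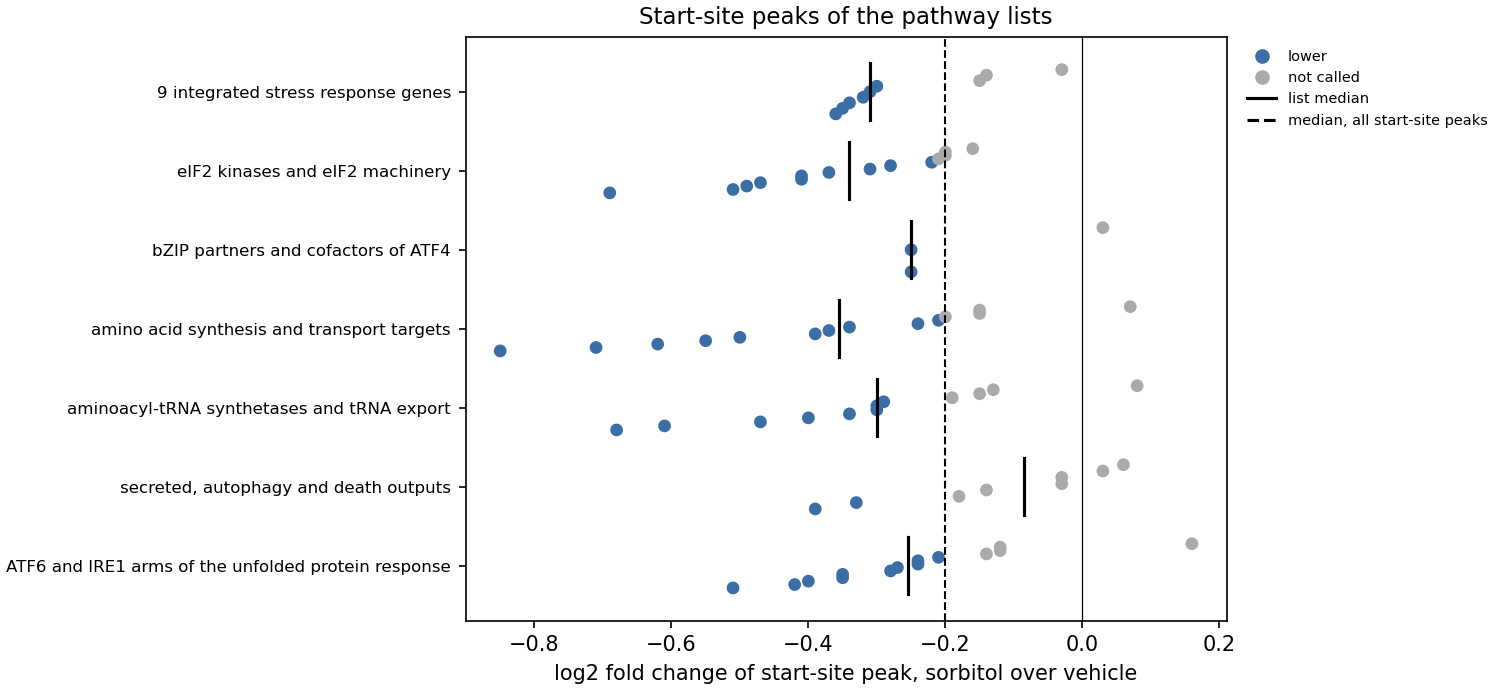
Log2 fold change, sorbitol over vehicle, of start-site peaks (horizontal axis) of the 9 genes and of 6 pathway lists, 1 point per peak. Blue points were called lower, grey points were not called, solid ticks are list medians and the dashed line is the median of all start-site peaks, -0.20. No peak of any list was called higher.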

How the data were processed

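ATAC-seq counts in peaks were analysed for 4 vehicle and 4 sorbitol libraries. The authors deposited raw counts for one shared set of peaks, and every column was assigned to a library by its name. Whether reads or fragments were counted is not given in the sources used here. The submitters' processing notes name Trim Galore 0.6.10, BWA 0.7.17, SAMtools 1.22, MACS2 2.2.9.1, deepTools 3.5.4 and hg38. Starts were taken as counted from 0 and printed counted from 1.

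The filterByExpr function (minimum count 10, minimum total 15) left 129487 peaks, which were fitted with edgeR 4.0.16 (R 4.3.3, TMM factors, quasi-likelihood test, no covariate). Benjamini-Hochberg adjustment ran over all features, with a threshold of 0.05. Window sums were fitted the same way with their own TMM factors, and start-site ratios with limma 3.58.1 after adding 0.5 to each count. The SE of an edgeR log2 fold change is its size divided by the root of F. In simulated counts, 50 features were changed at each fold. At 2, 0.5, 1.5 and 0.667-fold the peak fit recovered 43, 28, 7 and 4 of them. The window fit recovered 50, 49, 47 and 45, and the ratio fit 47, 48, 32 and 20. Unchanged features called numbered 2, 10 and 15 in turn. Small changes of single peaks were often missed there, and far fewer features changed than were called in these data. DESeq2 1.42.0 served as an alternative.

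Members and lists were chosen with earlier results of these data known. Named were every start-site peak of the 9 genes, the other peak of each window with the smallest p, called peaks of at least 2-fold, and the called start-site peak with the smallest p of each list. Other called peaks, and any peak singled out beside them, were named after their values were seen. Promoter windows came from a RefSeq table that is not complete. A planned GC correction was not run, because no genome was used here. Fewer accessible cells and lower accessibility per cell cannot be told apart in bulk libraries.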

Additional observations from a re-analysis of the deposited data

Results flagged for a closer look

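In sorbitol 3, the summed SESN2 window measured 144.2 CPM, below the 154 to 156 CPM of the other sorbitol libraries. The summed DDIT4 window measured 128.3 CPM in the same library, above the 124 to 125 CPM of the others. Each was picked out because its gap to the nearest library took more of the group's range than Dixon's 95% limit allows. Chance picks out about 1 in 20 groups, or 3.6 of the 72 groups examined here. Without sorbitol 3 the SESN2 window was still called lower and the DDIT4 window was still not called.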

How the results depend on the processing

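The 24 calls among the 53 peaks never changed sign under the alternatives tried. Of them, 24 were kept with DESeq2 size factors, 21 with library totals, 17 with loess, 10 with gene-boundary factors and 5 with contig factors. Peaks called higher numbered 2 with library totals, 4 with gene-boundary factors, 0 with contig factors, 2 without vehicle 4 and sorbitol 4, 0 with 5 kb on each side, 2 with 50 kb on each side and 0 without peaks at starts of other genes. With single libraries left out, 1 to 2 were higher and 18 to 21 lower. Peaks called lower numbered 9 with gene-boundary factors, 5 with contig factors, 15 of 37 when peaks had to average 50 counts, 15 at an adjusted p under 0.01, 11 of 26 with 5 kb and 41 of 105 with 50 kb. Pathway start sites called higher numbered 2 with loess and 2 with gene-boundary factors, and those called lower 22, 20 and, with contig factors, 6. Windows called numbered 1 to 2 with libraries left out in turn, 6 with library totals, 2 with 5 kb (PPP1R15A and CEBPB, in place of ATF4 and SESN2), 4 with 50 kb and 1 at an adjusted p under 0.01. Ratios called numbered 1 without peaks at starts of other genes. Start-site values that turned positive were TRIB3 (0.01 with loess, 0.03 with gene-boundary factors), ASNS (0.04 and 0.04) and CHAC1 (0.11 and 0.15, 0.05 with library totals and 0.05 with the 50-count average). The cause of these shifts was not tested.

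Deviations from the group means showed no sign of pairing between libraries of equal replicate number, with correlations of 5.59e-05, 0.00768, -0.0338 and -0.148. Such correlations cannot show that these libraries were handled separately. With the replicate block, 1 peak was called higher and 21 lower, and 2 windows and 2 ratios were called. The GC correction with that block was not run. Weak peaks limited precision, since those with a mean near 20 counts had an SE near 0.3 on the log2 scale.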

Other observations

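Start-site peaks of 3 kinases that phosphorylate eIF2 were measured, and they are given here after their values were seen. EIF2AK3 (PERK), which senses misfolded protein in the endoplasmic reticulum, fell from 102.0 to 83.7 CPM (log2 fold change -0.28, edgeR adjusted p = 0.00356). EIF2AK4 (GCN2), which senses uncharged tRNA, fell from 22.5 to 16.9 CPM (-0.41, adjusted p = 0.00189). Its groups overlapped, with sorbitol 4 at 20.1 CPM above vehicle 4 at 19.0 CPM. EIF2AK2 (PKR), which senses double-stranded RNA, measured 28.7 CPM in vehicle and 25 CPM in sorbitol and was not called (-0.20, adjusted p = 0.0889).

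Promoter GC content of the 9 genes ranged from 56.0% in PPP1R15A to 77.0% in TRIB3 and CEBPB, beside a median of 62.3% over all promoter windows. Among all start-site peaks, the share called lower was 41.0%, 50.1%, 46.6% and 35.2% from the quartile poorest in GC to the richest. Of the genes whose start sites were not called, CHAC1 and ASNS had 65.3% and TRIB3 had 77.0%. Those called lower ranged from 56.0% in PPP1R15A to 77.0% in CEBPB. Whether GC content bears on the calls was not tested.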
